A study of Saccharomyces cerevisiae with 12 samples.

Results

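The comparison described here is the strain difference in the glucose response of budding yeast: for each gene, the change after a glucose pulse in a strain without hexose transporters minus the change in the reference strain. It was taken over all 5449 genes of Saccharomyces cerevisiae named on the array, the same 5449 as in the whole series, so no gene entered by its values. The main values come from 8 of the 12 arrays, replicates 1 and 3 of every group, and the values from all 12 arrays are given beside them. A positive difference means that the change was higher in the null strain, either because a fall was smaller there or because a rise was larger, and the responses of the strains are given with it. All values are log2 intensities or differences between them, so that 1 unit is a doubling of signal.

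The reference strain (KOY.PK2-1C83P) and the null strain (KOY.VW101P), which the labels describe as lacking the known hexose transporters, are both of the CEN.PK laboratory background. Both grew in ethanol-limited chemostats, continuous cultures whose growth rate is set by the feed, at a dilution rate of 0.1 per h, so all 4 groups share ethanol as the carbon source before the pulse. Cells were sampled at steady state (0 min) and 20 min after glucose was added, with 3 arrays per strain and time from replicate cultures. The labels do not list the deleted genes one by one, and each genotype is represented by a single strain. The question the series puts is whether glucose must enter the cell for the transcriptional response to it.

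Yeast reads glucose at several places. The membrane sensors Snf3 and Rgt2 bind the sugar outside the cell and act through the corepressors Mth1 and Std1 on the repressor Rgt1, whose targets include hexose transporter genes and the repressor genes MIG2 and MIG3. The receptor Gpr1 also binds sugar outside the cell, while the Ras arm of the same cAMP and protein kinase A pathway, and the Snf1 kinase with its target repressor Mig1, are held to respond to sugar that has been taken up and phosphorylated. In cells shifted from ethanol to glucose, genes for respiration and gluconeogenesis are known to fall and genes for ribosome production to rise.

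The strain labels were checked with the deleted genes. HXT1, a low-affinity hexose transporter gene induced by glucose, had normalized intensities, given here and below for replicates 1, 2 and 3 in turn, of 4.76, 13.18 and 5.25 on the 0 min arrays of the reference strain and 13.20, 4.68 and 13.57 on its 20 min arrays. On all null arrays it lay at 2.06, the lowest value. Of 18 transporter genes listed, 15 were measured. None could be followed over time in the null strain, so their difference between responses is not described further. In the series of 3 HXT1 values the replicate 2 arrays lay with the arrays of the other labelled time, and the same held for other genes in both strains. The difference between responses computed from the replicate 2 arrays alone had a Pearson correlation of -0.963 with that of the other 8 arrays across the 5449 genes, which are not independent replicates. It had the opposite sign for 3557 of the 3611 genes called below. The reason was not tested, and no array was moved to another group. Every direction over time given here rests on the labels of replicates 1 and 3.

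The responses of the strains differed for most genes. In limma's fit of the 8 arrays, 3611 of 5449 genes passed an adjusted p of 0.05 for the difference, which is 66.3% of all genes tested. The null strain was higher for 1765 (32.4%) and lower for 1846 (33.9%), and 3038 differed by at least 1 log2 unit (55.8%). With all 12 arrays under their labels, limma called 0 genes (17 at an unadjusted p under 0.05, against 3793 with 8 arrays). With the same 12 arrays weighted by their concordance, 4045 genes were called, of which 3565 were also called with 8 arrays and had the same sign. In that fit the replicate 2 arrays had weights of 0.0548 to 0.370 and the others 1.04 to 6.02, so it rests largely on the same 8 arrays. The values as deposited moved the median difference over all genes from -0.04 to 0.21, a shift of 0.25. The calls moved to 2130 higher and 1596 lower. Differences smaller than this shift have no settled sign. The shift is a median, and some single genes and lists moved by more, so larger differences can also depend on scaling.

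**Figure D1:**
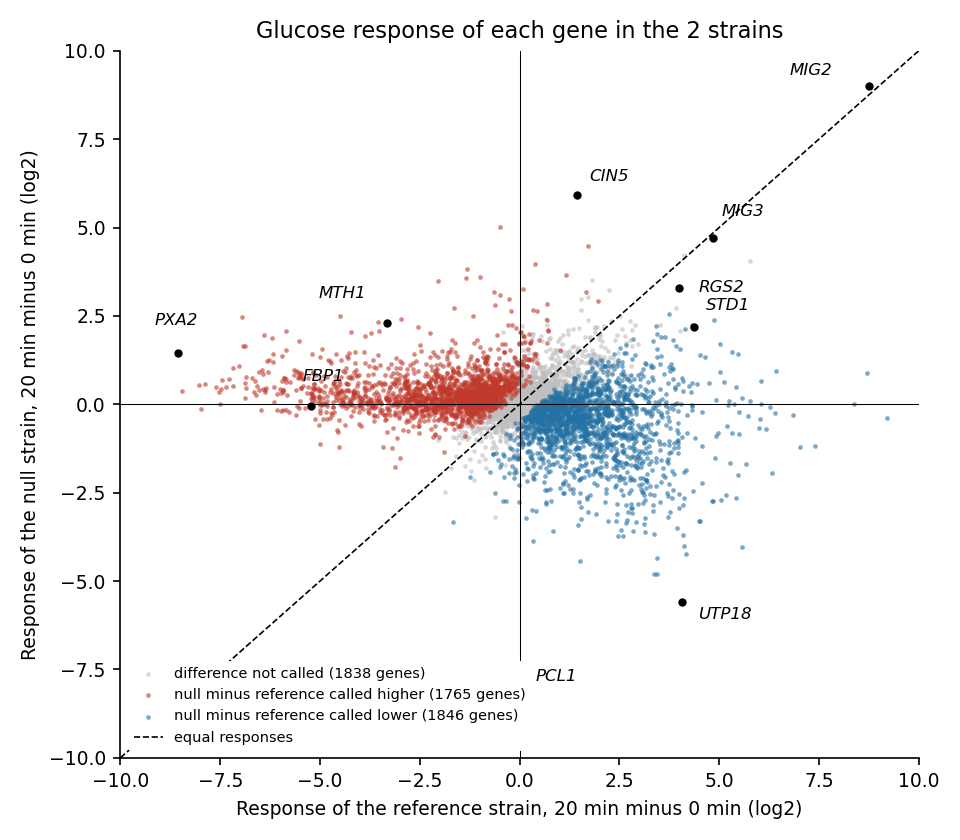
Response to the glucose pulse (20 min minus 0 min, log2) of each of 5449 genes in the reference strain (horizontal axis) and in the null strain (vertical axis), means of replicates 1 and 3. Red and blue points are the 1765 genes called higher and the 1846 called lower in the null strain, grey points the 1838 not called, black points named genes, and the dashed line marks equal responses. Most red and blue points lie along the horizontal axis, while MIG2 and MIG3 lie beside the dashed line and UTP18 and MTH1 lie in quadrants where the responses have opposite signs.

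The size of the response was smaller in the null strain over the array as a whole. The median absolute change was 1.11 in the reference strain and 0.381 in the null strain. In the reference strain 3940 genes changed (72.3%), and in the null strain 1501 did (27.5%). The null count was lower when any of several arrays was left out, at 873 without null 0 min replicate 3, 960 without null 20 min replicate 1 and 750 without null 20 min replicate 3. Of the 3940 genes that changed in the reference strain, 3277 (83.2%) were called for the difference. Of these, 2294 were not called in the null strain, 1023 that rose and 1271 that fell in the reference strain. Across all genes the responses of the strains, which share no array, had a Pearson correlation of -0.232 as a description.

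The null response did not follow the reference response in size. For the 254 genes that fell by at least 4 log2 units in the reference strain, the median null response was 0.39, with 54 genes up and 2 down. For the 491 genes that fell by 2 to 4 units it was 0.14, with 66 up and 19 down. At the other end, the 629 genes that rose by 2 to 4 units in the reference strain had a median null response of -0.38, with 223 down and 74 up, where 14.7% of all genes were called down and 12.9% up in the null strain. The 87 genes that rose by at least 4 units had a median of -0.23, with 27 down and 15 up.

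FBP1, UTP18 and MIG2 show 3 kinds of result. FBP1 (YLR377C), the gluconeogenic fructose-1,6-bisphosphatase, had 14.51, 9.33 and 14.66 before and 9.32, 14.64 and 9.38 after the pulse on the reference arrays as labelled. In the null strain it had 14.79, 14.57 and 14.39 at 0 min, then 14.43, 14.72 and 14.65 at 20 min. It was high on all 6 null arrays and on the reference arrays of 0 min replicates 1 and 3 and 20 min replicate 2, and about 5 log2 units lower on the other reference arrays. Its difference between responses was 5.18 (SE 0.23, limma adjusted p = 5.73e-05), from a fall by 5.24 in the reference strain and a value of -0.05 in the null strain. Over all 12 arrays the difference was 1.74 and was not called.

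UTP18 (YJL069C), a component of the small-subunit processome that makes the small ribosomal subunit, moved in opposite directions. It had 8.99, 12.82 and 8.44 on the reference arrays at 0 min, then 12.89, 9.43 and 12.67 at 20 min. The null arrays gave 9.06, 2.96 and 9.89 at 0 min, then 4.62, 9.19 and 3.16 at 20 min. Among replicates 1 and 3 the 20 min arrays were the highest of the reference strain and the lowest of the null strain, with no overlap. The difference was -9.65 (SE 0.77, limma adjusted p = 0.000238), and over all 12 arrays it was -3.23 and not called. The null 20 min arrays of replicates 1 and 3 lay under 5 log2 units, toward the lowest value of 2.06, so the size of its fall is uncertain. The same holds below for every gene with a group mean under 5, a limit set with the values in view, and it covered 467 genes, 222 of them called. Among the genes given below it covers MIG2, CAT8, PXA2, GAC1, GPH1, GSY1, SOL4, ATG14, ATG17, REX4, IPI3, RPC17, PFK26, PCL1, PHO84, USV1, CSM4, GIP2, MRK1, SHQ1, GRC3, TOP3, RCK1, DAK2, YNR014W, YGR174W-A, YKL096C-B, YMR175W-A, PAU21, RAX1, REC102 and BAG7.

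MIG2 (YGL209W), a zinc finger repressor of glucose-repressed genes, rose in both strains. It had 2.82, 10.96 and 2.10 at 0 min, then 11.05, 2.07 and 11.38 at 20 min on the reference arrays. On the null arrays it had 3.43, 13.59 and 4.29 at 0 min, then 12.84, 3.43 and 12.91 at 20 min. The measured rises were 8.76 and 9.02. They start under 5 in both strains, near the lowest value in the reference strain, so that the true rises may be larger and the sizes given, their difference included, are uncertain. The measured difference of 0.26 did not pass (SE 0.51, 95% interval -1.02 to 1.54, limma adjusted p = 0.684), and it was -0.25 over all 12 arrays. The interval allows a difference of more than 1 log2 unit in either direction, and it does not cover the uncertainty of the low starts, so it does not show that the rises were equal.

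**Figure D2:**
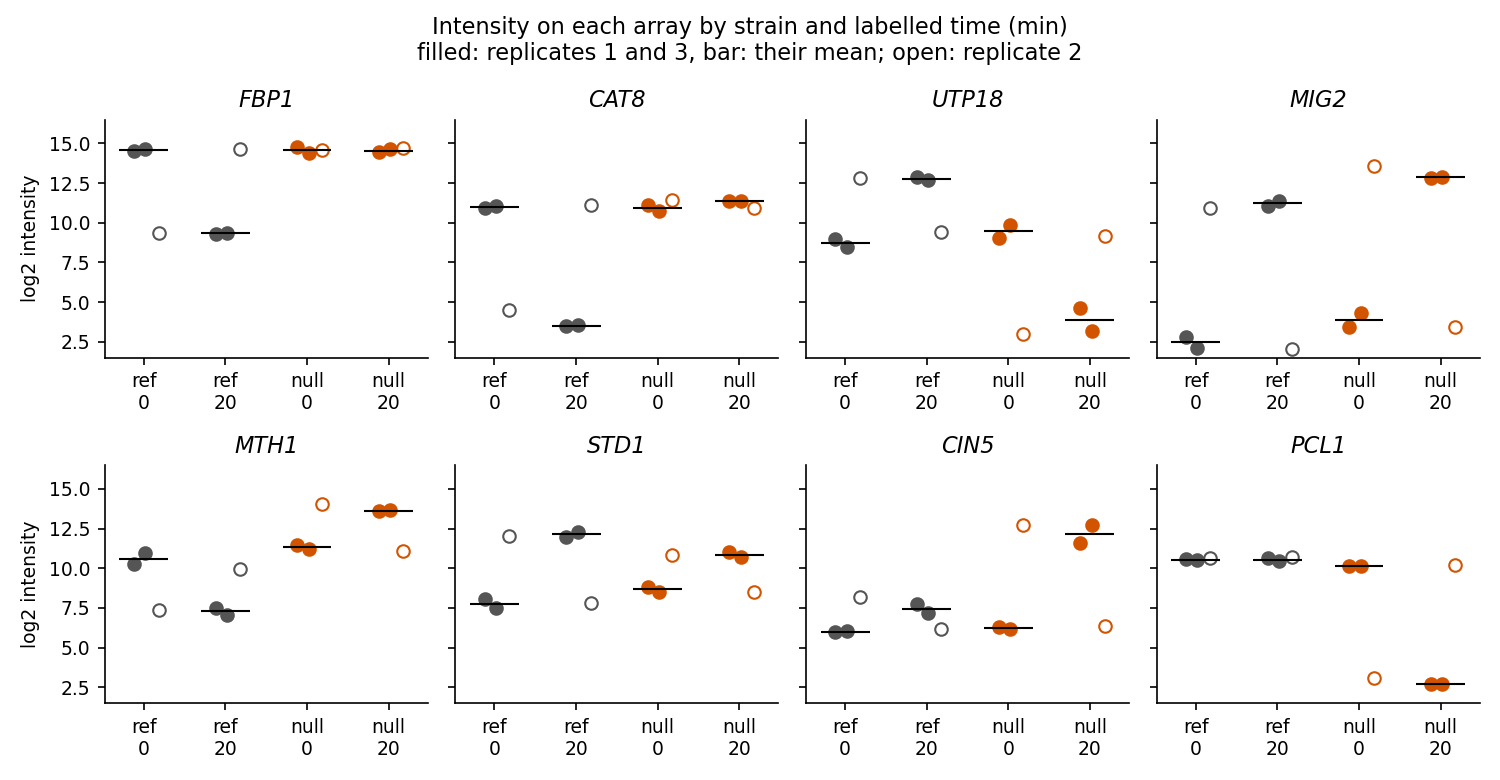
Normalized log2 intensity on each of the 12 arrays for 8 genes, by strain and labelled time in min, with replicates 1 and 3 filled, replicate 2 open, and a bar at the mean of replicates 1 and 3. In the reference strain FBP1 and CAT8 drop and in the null strain they stay near their 0 min level, UTP18 and MTH1 move oppositely in the strains, MIG2 rises in both, and each open point lies with the filled points of the other labelled time where a gene changed.

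The genes of the sensor branch differed among themselves. MIG3, a further repressor induced through this branch, rose by 4.85 in the reference and 4.71 in the null strain, and the difference of -0.14 did not pass (95% interval -0.86 to 0.58). The corepressor genes MTH1 and STD1 parted. MTH1 had 10.27, 7.35 and 10.95 at 0 min, then 7.52, 9.92 and 7.04 at 20 min in the reference strain, and 11.44, 14.06 and 11.22 and then 13.63, 11.10 and 13.64 in the null strain. Among replicates 1 and 3 it was lowest on the reference and highest on the null arrays at 20 min, and it fell by 3.33 in the former strain and rose by 2.30 in the latter, a difference of 5.63 (SE 0.39, limma adjusted p = 0.000156). STD1 rose in both, by 4.37 in the reference and 2.17 in the null strain, and its rise was smaller in the null strain (difference -2.20, SE 0.35, limma adjusted p = 0.00285).

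Both sensor genes were called for the difference, in opposite directions. SNF3, the high-affinity sensor, had 11.10, 7.43 and 10.87 at 0 min, then 6.89, 10.95 and 6.74 at 20 min on the reference arrays, and stayed between 10.63 and 10.99 on all null arrays. Its fall by 4.16 in the reference strain stood beside -0.19 in the null strain, a difference of 3.97 (SE 0.19, limma adjusted p = 6.55e-05). RGT2, the low-affinity sensor, rose by 1.52 in the reference and fell by 0.58 in the null strain, a difference of -2.11. YCK2, a membrane casein kinase of the branch, rose by 1.12 in the reference and fell by 1.21 in the null strain, a difference of -2.33. Of the 10 genes listed for the branch, 2 were called higher and 3 lower for the difference, shares below those of all genes (32.4% and 33.9%). The repressor gene RGT1, the casein kinase gene YCK1 and GRR1, whose F-box product marks the corepressors for degradation, were not called for the difference, at 0.51, 0.26 and -0.29.

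In the Snf1 and Mig1 branch 4 of 17 genes were called higher and 4 lower, against 32.4% and 33.9% of all genes. REG2, a regulatory subunit of the phosphatase that opposes Snf1, fell by 5.21 in the reference strain and was at 0.32 in the null strain, a difference of 5.53 (SE 0.34, limma adjusted p = 0.000116). SIP2, a beta subunit of the kinase, fell by 3.92 in the reference strain against 0.13 in the null strain, a difference of 4.05. The other beta subunit genes SIP1 and GAL83 were not called, at -0.21 and -0.25. REG1 and GLC7, which encode another regulatory subunit and the catalytic subunit of the phosphatase, were not called either, at 0.45 and -0.06. The kinase gene SNF1 and its gamma subunit SNF4 had smaller differences of 1.04 and 0.56. Of the genes for the upstream kinases, ELM1 rose by 1.26 in the reference and fell by 1.33 in the null strain, a difference of -2.60, and SAK1 rose by 1.32 in the reference strain and was at -0.03 in the null strain, a difference of -1.35.

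MIG1, the main repressor of this branch, rose in both strains. Its reference arrays had 9.68, 11.17 and 9.45 at 0 min, then 11.13, 9.96 and 11.14 at 20 min, and its null arrays 10.63, 12.21 and 10.82 and then 12.10, 10.68 and 12.15. The groups of the 2 times did not overlap in either strain among replicates 1 and 3. Rises of 1.57 and 1.40 gave a difference of -0.17 that did not pass (95% interval -0.58 to 0.24). MIG1 was called higher in the null strain at both times, by 1.16 at 0 min (limma adjusted p = 0.017) and 0.99 at 20 min (limma adjusted p = 0.000604). HXK2, the hexokinase with a role in repression, was at -0.14 in the reference strain and fell by 1.01 in the null strain, a difference of -0.87 (SE 0.17, limma adjusted p = 0.00613). NRG1, the remaining lower call of the list, had a difference of -1.36 (95% interval -2.53 to -0.18, limma adjusted p = 0.0463). The corepressor genes CYC8 and TUP1 were not called, at -0.17 and -0.25, with wide intervals of -1.14 to 0.79 and -1.50 to 0.997. The median difference of this list was -0.17 and turned to 0.11 with values as deposited.

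In the cAMP pathway 11 of 22 genes were called higher and 6 lower, against 32.4% and 33.9% of all genes, and members of 2 paralog pairs, TPK2 with TPK3 and RAS1 with RAS2, took opposite directions. TPK2, a catalytic subunit of protein kinase A, had 12.12, 7.37 and 12.27 at 0 min, then 8.14, 12.36 and 7.94 at 20 min in the reference strain, and lay between 11.83 and 12.43 on all null arrays. TPK3, another catalytic subunit, had 9.51, 11.63 and 9.05 and then 11.58, 9.13 and 11.77 in the reference strain, and 9.67, 7.30 and 9.42 and then 7.39, 9.50 and 7.04 in the null strain. TPK2 thus fell by 4.15 in the reference strain and was at 0.29 in the null strain, with a difference of 4.44 (SE 0.25, limma adjusted p = 9.02e-05). TPK3 rose by 2.40 in the reference and fell by 2.33 in the null strain, with a difference of -4.72 (SE 0.30, limma adjusted p = 0.000124). BCY1, the regulatory subunit, fell by 2.34 in the reference strain against 0.18 in the null strain, a difference of 2.52.

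RAS1, of the pair of Ras genes, had 8.80, 12.56 and 9.05 at 0 min, then 12.49, 9.10 and 12.33 at 20 min in the reference strain, and between 8.85 and 9.79 on the null arrays, a difference of -3.39 (SE 0.43, limma adjusted p = 0.00128). RAS2 fell by 1.02 in the reference and rose by 1.09 in the null strain, a difference of 2.10. Higher differences were called for the Ras inhibitor genes IRA1 (1.65) and IRA2 (0.90), for the adenylate cyclase gene CYR1 (2.27) and for SRV2 (3.83), whose product binds the cyclase. The phosphodiesterase gene PDE2 was lower (-3.93, SE 0.87), while PDE1 and CDC25, the Ras exchange factor, were not called, at 0.29 and 0.00.

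At the top of the pathway, the receptor gene GPR1 was lower (-1.22) and its G protein gene GPA2 higher (1.61) for the difference. RGS2, which encodes the inhibitor of Gpa2, rose by 4.0 in the reference and 3.28 in the null strain. The difference of -0.72 did not pass (SE 0.27, 95% interval -1.40 to -0.04, limma adjusted p = 0.060). Among the kinases and factors that act against protein kinase A, YAK1 had the largest difference of those listed, 5.02, from a fall by 4.23 in the reference and a rise of 0.79 in the null strain. GIS1 had 3.18 and RIM15 0.93, and the stress activator genes MSN2 and MSN4 were not called, at 0.20 and 0.12. SCH9, a growth kinase, was lower by the difference of -1.07.

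**Figure D3:**
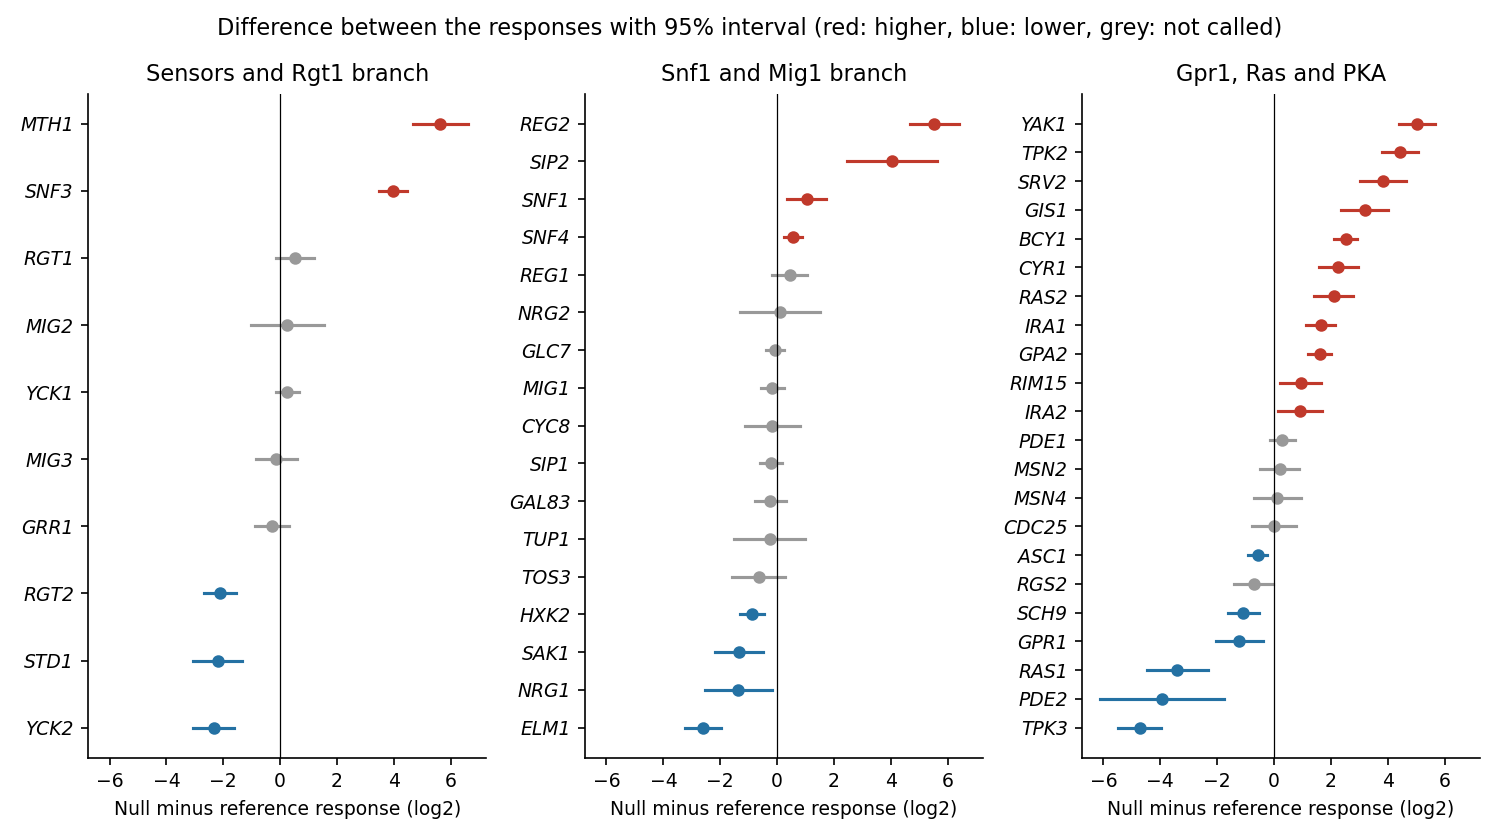
Difference between the responses (null minus reference, log2) with its 95% interval for the genes of the sensor branch (10), the Snf1 and Mig1 branch (17) and the cAMP pathway (22), red where called higher, blue where called lower and grey where not called. Each panel holds genes on both sides of 0, from MTH1 at 5.63 to YCK2 at -2.33, from REG2 at 5.53 to ELM1 at -2.60 and from YAK1 at 5.02 to TPK3 at -4.72.

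Activators of genes used in the absence of glucose were called higher in 7 of 14 cases and lower in 1, against 32.4% and 33.9% of all genes. The higher count was 5 with a block for replicate number within each strain and with the trend and robust variance, and 7 as deposited. It was also 5 without any 1 of the reference arrays, without null 0 min replicate 3 or without null 20 min replicate 1. Without null 0 min replicate 1 or null 20 min replicate 3 it was 6. A count of 5 of 14 lies near the 32.4% of all genes. The lower count was 3 without null 0 min replicate 3 and 2 without null 20 min replicate 1. CAT8, the activator of gluconeogenic genes, had 10.95, 4.48 and 11.06 at 0 min, then 3.49, 11.09 and 3.55 at 20 min in the reference strain. On the null arrays it had 11.11, 11.44 and 10.74 and then 11.35, 10.91 and 11.39. It was low on 3 reference arrays and on no null array, and its difference was 7.93 (SE 0.20, limma adjusted p = 3.92e-05), with the low group under 5. ADR1, which activates ethanol and fatty acid genes, had a difference of 5.26, and PIP2, an oleate-responsive activator, 3.22. ERT1, another regulator of non-fermentative growth, rose by 3.17 in the reference and fell by 0.90 in the null strain, a difference of -4.06.

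The enzymes of growth on ethanol took the direction of FBP1. Counts of higher and lower genes in the lists from here on are to be read against 32.4% and 33.9% of all genes. All 8 gluconeogenesis and glyoxylate cycle genes were called higher for the difference, where 32.4% of all genes were, with a median difference of 4.66 (1.62 over all 12 arrays). Their median response was -4.69 in the reference and -0.08 in the null strain, and centring the arrays on their medians turned the latter to 0.21. SFC1, the succinate and fumarate carrier of mitochondria, had a difference of 5.90, and MLS1, malate synthase, 4.85. MLS1 lay between 15.28 and 15.50 on the null arrays, near the highest value of 15.96, so that a fall could have been seen there but hardly a rise.

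Of 16 genes for ethanol, acetate and lactate use, 15 were higher and 1 was not called, with a median of 3.94 (1.24 over all 12 arrays). CYB2, the lactate dehydrogenase that feeds cytochrome c, fell by 5.94 in the reference and rose by 1.37 in the null strain, a difference of 7.31 (SE 0.37, limma adjusted p = 7.38e-05). CAT2, carnitine acetyltransferase, had 5.32 and ATO2, a membrane protein linked to acetate and ammonium transport, 5.78. DLD2, a D-lactate dehydrogenase, was not called at 0.02 (95% interval -0.47 to 0.52). In the citric acid cycle 15 of 17 genes were higher and 2 not called (median 3.15), led by CIT3 at 5.62, SDH3 at 4.36 and KGD1 at 4.18. In the respiratory chain and ATP synthase 34 of 35 were higher (median 2.28), with the NADH dehydrogenases NDE2 at 5.41 and NDI1 at 5.04. The remaining one was CYC7, an isoform of cytochrome c, at 0.20 (95% interval -1.36 to 1.76).

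Peroxisome and fatty acid oxidation genes had the largest median difference among the lists, 5.73 (1.75 over all 12 arrays and 6.80 with values as deposited). Of 19 genes, 17 were higher, 1 lower and 1 not called, where 32.4% of all genes were higher. PXA2, a subunit of the importer of long-chain fatty acids, had 11.71, 3.94 and 11.65 at 0 min, then 3.58, 11.67 and 2.67 at 20 min in the reference strain. On the null arrays it had 11.89, 13.24 and 11.60 and then 13.32, 11.72 and 13.06. The strains thus moved apart, and the difference of 10.003 (SE 0.43, limma adjusted p = 5.73e-05) was the largest positive value of the 5449 genes, with the low reference arrays under 5. POX1, acyl-CoA oxidase, fell by 6.70 in the reference strain and was at 0.75 in the null strain, a difference of 7.46, and IDP3, a peroxisomal isocitrate dehydrogenase, had 7.53. PEX21, a peroxisomal import factor, was lower (-1.53), and the carrier gene ANT1 was not called at -0.09. The median response of the list in the null strain was 0.72, and 9 genes rose there, where 12.9% of all genes did with all 8 arrays. That count was 3 without null 0 min replicate 3, 2 without null 20 min replicate 1 and 3 without null 20 min replicate 3.

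Reserve and stress genes followed. Of 20 trehalose and glycogen genes 18 were higher and 2 not called (median 4.22, 1.38 over all 12 arrays and 5.59 with values as deposited). GAC1, the glycogen-targeting subunit of a phosphatase, had a difference of 8.37, GPH1, glycogen phosphorylase, 7.88, and GSY1, glycogen synthase, 6.59, each with a group under 5. The neutral trehalase gene NTH1 was not called at 0.21. Of 32 stress genes 31 were higher (median 3.90), among them SOL4 at 7.70, the repressor gene XBP1 at 7.53 and RTN2 at 6.41. XBP1 had 11.80, 5.63 and 11.59 and then 5.77, 11.74 and 4.99 on the reference arrays, and it lay between 11.38 and 13.17 on the null arrays. HSP31 was not called at 0.31.

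Protein breakdown genes were higher as well. All 33 proteasome genes were higher for the difference, by 0.67 to 3.84 with a median of 2.24. PRE3, a catalytic subunit of the core, fell by 3.83 in the reference strain and was at 0.01 in the null strain, a difference of 3.84 (SE 0.17, limma adjusted p = 5.73e-05). Of 20 autophagy and vacuole genes 17 were higher and 3 not called (median 3.69, or 4.67 with values as deposited). ATG14 and ATG17, an early lipid kinase subunit and a scaffold of autophagosome formation, fell by 3.87 and 3.89 in the reference strain and rose by 1.94 and 1.47 in the null strain. ATG14 ended at the lowest value in the reference strain, so its fall there is a lower bound and no size is given for its difference. ATG18 was not called at -0.04.

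Genes of ribosome assembly gave the opposite picture. All 56 genes of the small-subunit processome and small-subunit assembly were lower, by 1.61 to 9.65 with a median difference of -3.88, and all 59 genes of large-subunit assembly were lower, by 1.37 to 9.61 with a median of -3.87, where 33.9% of all genes were. Over all 12 arrays the medians were -1.46 and -1.47. In the reference strain every gene of both lists rose, where 39.3% of all genes did, with medians of 2.98 and 2.73. In the null strain the medians were -1.23 and -0.91 and 36 and 34 genes fell, where 14.7% of all genes did. Without null 20 min replicate 3 the falls numbered 22 in each list.

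REX4, which encodes a putative RNA exonuclease of ribosome assembly, shows this pattern on single arrays. It had 7.24, 12.61 and 7.01 at 0 min, then 12.63, 7.10 and 12.78 at 20 min in the reference strain, and 7.18, 3.43 and 7.89 and then 3.78, 7.54 and 3.22 in the null strain. It started at like levels in both strains and ended about 9 log2 units apart, with a difference of -9.61 (SE 0.42, limma adjusted p = 5.73e-05) and the null 20 min arrays under 5. IPI3, of a complex that matures the large subunit, had -8.40, and the large-subunit assembly gene ALB1 -8.17 with a larger SE of 1.47. In the small-subunit list LCP5 and UTP23 had -6.81 and -6.51.

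RNA polymerase I and III genes were lower in 27 of 35 cases, higher in 4 and not called in 4 (median -2.92). RPA12, a polymerase I subunit, had 10.95, 13.87 and 10.18 and then 14.10, 10.53 and 13.90 on the reference arrays. On the null arrays it had 10.14, 4.50 and 11.23 and then 7.38, 10.54 and 5.29, all 20 min values of replicates 1 and 3 below those of 0 min. The difference was -7.79 (SE 1.07, limma adjusted p = 0.00164). RPC17, of polymerase III, had -6.77, RRN11, of the polymerase I core factor, -6.40, and TFC8, of the polymerase III factor TFIIIC, was higher at 2.48. Of 11 regulators of ribosome genes 3 were higher, 5 lower and 3 not called (median -0.37). The activator genes IFH1 and FHL1 rose by 3.01 and 2.34 in the reference and fell by 1.51 and 0.84 in the null strain. Their differences were -4.52 and -3.18. CRF1, a corepressor that competes with Ifh1, was higher at 3.65, and TOD6, a repressor of assembly genes, lower at -2.30.

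The structural ribosomal proteins differed less. Of 128 cytosolic ribosomal protein genes 100 were lower and 28 not called, with a median difference of -0.85 (-0.24 over all 12 arrays). The lower count was 69 with a block for replicate number within each strain and 115 with centred arrays. The median response was 0.67 in the reference strain and -0.16 in the null strain, and centring the arrays on their medians turned the latter to 0.10. RPS28B had the largest difference of them, -4.13 (SE 0.31), from a rise of 2.34 and a fall by 1.79, followed by RPL22B at -3.58 and RPL6B at -2.90, whereas RPL3 was not called at -0.05 (95% interval -0.40 to 0.31). Mitochondrial ribosomal protein genes had the other sign, with 43 of 54 higher, 1 lower and 10 not called (median 1.13). The lower call was lost without reference 0 min replicate 1, either reference 20 min array, null 0 min replicate 3 or null 20 min replicate 1. MRPS12 at 2.21, MRPL28 at 2.10 and MRPL32 at 1.82 led the list.

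Translation and precursor genes were mostly lower. Of 33 translation factor genes 29 were lower and 1 higher (median -1.60), or 2 higher without reference 0 min replicate 1, with GCN3, a subunit of the exchange factor eIF2B, rising by 2.22 in the reference and falling by 2.10 in the null strain, a difference of -4.32. Of 19 cytosolic tRNA synthetase genes 16 were lower (median -1.18), and 1 was higher, a call lost without reference 0 min replicate 1, reference 20 min replicate 3 or any 1 of the null arrays. KRS1, for lysine, had -4.78, WRS1, for tryptophan, -4.44 and MES1, for methionine, -3.75. Of 20 purine and one-carbon genes 16 were lower and 1 higher (median -1.20). IMD4, an IMP dehydrogenase of GMP synthesis, rose by 5.33 in the reference strain and was at -0.80 in the null strain, a difference of -6.13. ADE4, which encodes the first enzyme of purine synthesis, rose by 1.92 and fell by 3.09, a difference of -5.02.

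In amino acid synthesis 25 of 44 genes were lower (33.9% over all genes), 7 higher (32.4%) and 12 not called (median -0.70). The higher count was 4 without reference 20 min replicate 1, null 0 min replicate 3 or null 20 min replicate 3, and also with values as deposited or centred arrays. SER2, phosphoserine phosphatase, rose by 3.44 in the reference and fell by 4.81 in the null strain, a difference of -8.25 (SE 0.77), and the histidine genes HIS1 and HIS7 had -4.33 and -3.84. ARG1, argininosuccinate synthetase, was higher at 1.70, since its fall by 2.52 in the reference strain was larger than its fall by 0.82 in the null strain. In the null strain 25 genes of this list fell, where 14.7% of all genes did. This count was 15 without null 0 min replicate 3, 13 without null 20 min replicate 1 and 14 without null 20 min replicate 3.

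The sulfur genes were lower in 16 of 27 cases and higher in 1 (median -1.55), or in 2 without null 0 min replicate 1, and part of them were called in the null strain and not in the reference strain. MET14, adenylylsulfate kinase, had 12.86, 12.69 and 12.52 at 0 min, then 13.06, 12.40 and 12.66 at 20 min in the reference strain, with overlapping values. On the null arrays it had 12.10, 8.76 and 12.43 and then 8.98, 12.40 and 9.10. It was at 0.17 in the reference strain and fell by 3.23 in the null strain, a difference of -3.39 (SE 0.29, limma adjusted p = 0.000292). MET16, of the next step of sulfate reduction, had -4.43. The sulfate permease genes parted, with SUL2 at -4.19, from 0.33 in the reference strain and a fall by 3.86 in the null strain, and SUL1 at 3.63, from a fall by 3.52 in the reference strain and 0.11 in the null strain. MET17 was not called at -0.04.

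Of 27 glycolysis and fermentation genes 13 were higher, 5 lower and 9 not called, against 32.4% higher and 33.9% lower over all genes. The lower count was 3 without reference 20 min replicate 1, null 0 min replicate 1 or null 20 min replicate 3. The median difference was 0.27, or -0.07 once arrays were centred on their medians. PFK26 and PFK27 both make fructose 2,6-bisphosphate, an activator of glycolysis. PFK26 had 10.90, 4.33 and 10.95 and then 4.70, 10.70 and 3.43 on the reference arrays and between 10.68 and 12 on the null arrays, a difference of 7.62 (SE 0.60) with a group under 5. PFK27 had 6.25, 11.82 and 6.38 and then 11.85, 6.64 and 12.24 on the reference arrays and between 6.13 and 7.49 on the null arrays, a difference of -6.06 (SE 0.68). The sugar kinase genes HXK1 and GLK1 were higher, at 5.25 and 4.46. CDC19, the main pyruvate kinase, was not called at -0.14 (95% interval -0.57 to 0.28).

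Part of the genes for other sugars rose in the null strain. Of 11 sucrose, maltose and galactose genes 8 were higher and 3 not called, with a median difference of 2.37 and a median null response of 1.07. In the null strain 5 genes of the list rose, where 12.9% of all genes did. With values as deposited 10 were higher, the median difference was 3.74 and 3 genes rose in the null strain. MAL31, a maltose permease gene, had 11.95, 9.10 and 12.07 and then 9.52, 11.81 and 9.40 on the reference arrays, and 11.73, 14.23 and 11.38 and then 13.55, 11.67 and 13.93 on the null arrays. From like levels at 0 min it fell by 2.55 in the reference and rose by 2.18 in the null strain, a difference of 4.73 (SE 0.26, limma adjusted p = 8.35e-05). MAL32, maltase, had 5.58. The related family members share sequence, so reads of close copies on the array are uncertain. SUC2, invertase, fell by 4.83 in the reference strain and was at 0.76 in the null strain, a difference of 5.59.

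Further lists held differences in both directions, with shares to be read against 32.4% higher and 33.9% lower over all genes. Among amino acid and ammonium permeases 7 of 18 were higher and 7 lower, near those shares, with PUT4, for proline, at 4.97 and AGP1, a broad permease, at -3.76. Among osmotic and glycerol genes 8 of 21 were higher and 8 lower, again near them, and the lower count was 5 without reference 20 min replicate 1 or null 0 min replicate 1. GUT2, which oxidizes glycerol 3-phosphate in mitochondria, had 3.94, and GPP2, a glycerol phosphatase, -3.47. Among phosphate genes 5 of 14 were higher and 4 lower, and 8 were higher with values as deposited. The phosphate transporter gene PHO84 rose by 5.78 in the reference strain from near the lowest value and was at 0.10 in the null strain, a difference of -5.67. Among Start genes 1 of 14 was higher and 3 were lower, below the shares over all genes. The higher count depended on scaling, at 4 with values as deposited and 3 with centred arrays, and it was 2 without reference 20 min replicate 3, null 0 min replicate 1 or null 20 min replicate 1. The cyclin gene PCL1 lay between 10.44 and 10.68 on all 6 reference arrays, and on the null arrays it had 10.14, 3.10 and 10.13 and then 2.71, 10.23 and 2.69. It fell in the null strain, with a difference of -7.42 (SE 0.13, limma adjusted p = 1.71e-05) and an end near the lowest value.

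**Figure D4:**
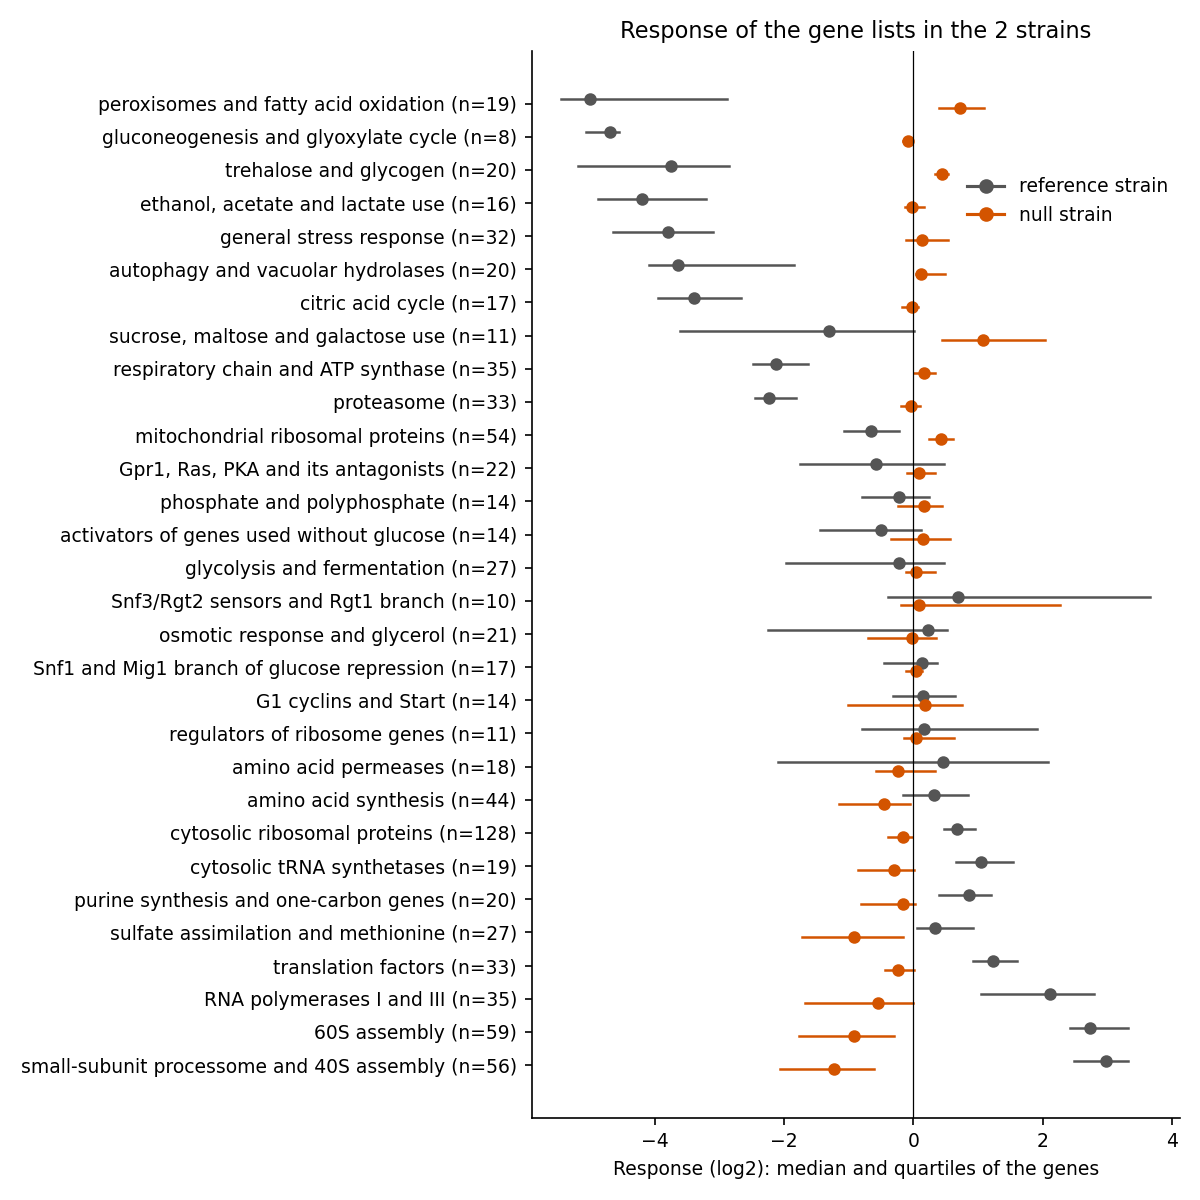
Median response (20 min minus 0 min, log2, points) and quartiles (lines) of the genes of 30 lists in the reference strain (grey) and the null strain (orange), in the order of the median difference, over replicates 1 and 3. The reference medians run from -5.00 for peroxisomes to 2.98 for the small-subunit processome, and the null medians from -1.23 to 1.07.

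Over all genes, the largest differences in each direction were as follows. Among called genes with all group means of at least 5, the 12 highest were ISF1 (8.57), PHM7 (8.54), FAT3, XBP1, IDP3, POX1, ARO9, CYB2, LEE1, DBP1, MDG1 and UGX2 (6.66). ISF1, linked to respiratory growth, had 12.34, 6.20 and 12.78 and then 5.04, 12.78 and 6.22 on the reference arrays. On the null arrays it had 12.47, 14.29 and 12.51 and then 14.11, 12.27 and 14.14, and so moved apart in the strains, with a fall by 6.93 and a rise of 1.64. The 12 lowest were AQR1 (-8.60), SER2, ALB1, YMR244W, RPA12, IPI1, SRP40, UTR2, TRM44, CGR1, SSF1 and BMT2 (-6.92). AQR1, a membrane exporter, rose by 7.41 in the reference strain, where its arrays of the 2 times did not overlap among replicates 1 and 3. Its null values were 8.42, 6.86 and 10.57 and then 9.55, 8.0 and 7.05, which overlapped, and the SE of the difference was 1.43. UTR2, a cell wall enzyme, rose by 5.46 and fell by 2.01, a difference of -7.47 (SE 0.38, limma adjusted p = 7.34e-05).

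Opposite changes were called for 829 genes, each called in both strains and for the difference. These are 21.0% of the genes that changed in the reference strain and 55.2% of those that changed in the null strain. In 555 the reference strain rose and the null strain fell, and in 274 the reverse held. The total was 476 without null 0 min replicate 3, 542 without null 20 min replicate 1 and 442 without null 20 min replicate 3, and 456 with the within-strain replicate block. The reverse group was 168 with values as deposited, 174 and 140 without null 0 min replicates 1 and 3, and 104 and 85 without null 20 min replicates 1 and 3, and the first group was 336 and 357 without the replicate 3 arrays of the null strain. By the size of the smaller response, the first group was led by REX4, IPI3, UTP18, SHQ1, IPI1, GRC3, SER2 and RPA12. The reverse group was led by CSM4, USV1, GIP2, MTH1, MAL31, MRK1, MAL32 and YGR174W-A. USV1, a transcription factor gene of the stress response, had 11.18, 3.53 and 10.47 and then 3.66, 11.12 and 4.10 on the reference arrays, and 11.29, 13.74 and 10.63 and then 13.32, 10.79 and 13.55 on the null arrays, a difference of 9.42 with a group under 5.

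A smaller set changed with the same sign in both strains. Of 1206 genes called in both, 377 had the same sign, and for 223 of these the difference was not called, 170 that rose and 53 that fell. The 95% interval of the difference lay within 1 log2 unit of 0 for 118 of the 223, and for the others a larger difference remains possible. The count was 144 and 138 without reference 20 min replicates 1 and 3, and 83 without null 20 min replicate 3. The shared rises were led by MIG2, MIG3, ARI1, RCK1, RGS2, YNR014W, YJL213W and DAK2. ARI1, an aldehyde reductase, had 5.99, 10.35 and 6.34 and then 10.14, 5.90 and 10.43 in the reference strain, and 8.13, 12.46 and 8.37 and then 12.55, 8.20 and 12.39 in the null strain. It rose by 4.12 and 4.22, from a start about 2 log2 units higher in the null strain, and the difference was 0.10 (95% interval -0.54 to 0.74). RCK1, a protein kinase, rose by 5.77 and 4.04, and its interval of -5.36 to 1.91 is too wide to set the rises side by side. For YJL213W the sign depended on scaling, at -0.01 here and 1.68 with values as deposited.

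The shared falls were led by TOP3, DOT1, TRS120, POL30, MET28, CLN1, HCS1 and ALG12. DOT1, a histone methyltransferase, fell by 1.71 in the reference strain and fell by 1.80 in the null strain, with a difference of -0.09 (95% interval -0.72 to 0.55). CLN1, a G1 cyclin, fell by 1.15 in the reference strain and fell by 2.15 in the null strain, and the difference of -1.005 did not pass (95% interval -2.09 to 0.08). Where the same-sign changes did differ, the null change was the smaller in 132 genes, 92 that rose and 40 that fell, and the larger in 22. These 154 genes became 93 and 98 without null 0 min replicates 1 and 3, 100 and 71 without null 20 min replicates 1 and 3, and 79 and 88 without reference 20 min replicates 1 and 3.

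A change was called in the null strain and not in the reference strain, with a called difference, for 234 genes, 119 up and 115 down. This count was 138 without null 0 min replicate 3, 151 without null 20 min replicate 1 and 146 without null 20 min replicate 3. Rises were led by YKL096C-B, UTR5, SDD1, YOR019W, YMR175W-A, YOR062C, IMA1 and PAU21. UTR5 had between 5.12 and 6.30 on the reference arrays, and 5.49, 9.55 and 4.72 and then 8.85, 5.43 and 9.28 on the null arrays, a rise of 3.96 and a difference of 3.59 (SE 0.44). IMA1, an isomaltase, rose by 2.83 in the null strain, with a difference of 2.14. Falls were led by PCL1, YKL068W-A, SUL2, MET14, AIM20, UNG1, RAX1 and EPT1. UNG1, uracil-DNA glycosylase, fell by 2.98, with a difference of -3.28 (SE 0.70), and EPT1, of phospholipid synthesis, fell by 2.78, with a difference of -3.43.

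Among the 22 genes that changed with the same sign and more in the null strain, CIN5, BAG7, YJR115W, REC102 and SSA2 were chosen for description after their values were seen. CIN5, a basic leucine zipper factor, had 5.96, 8.18 and 6.05 and then 7.74, 6.17 and 7.16 on the reference arrays, and 6.30, 12.74 and 6.18 and then 11.61, 6.34 and 12.71 on the null arrays. The strains lay close to each other at 0 min and apart at 20 min, with rises of 1.44 and 5.92 and a difference of 4.47 (SE 0.55, limma adjusted p = 0.00107). SSA2, a constitutive Hsp70 chaperone, fell by 1.67 in the reference strain and fell by 3.34 in the null strain, a difference of -1.67 (SE 0.17). Its close paralog SSA1 shares sequence with it, so the split of signal between them is uncertain.

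The strains differed in more genes after the pulse than before it. At 0 min limma called 70 genes between the strains (1.28%), and at 20 min 4106 (75.4%), with median absolute strain differences of 0.210 and 1.27. The difference between responses equals the strain difference at 20 min minus that at 0 min, so these share arrays. Of its 3611 calls, 44 were also called at 0 min and 3503 at 20 min. The 44 became 16 without either reference 0 min array, 23 and 22 without reference 20 min replicates 1 and 3, 12 without null 0 min replicate 3, and 20 and 21 without null 20 min replicates 1 and 3. FBP1 had a strain difference of 0.01 at 0 min and 5.19 at 20 min, UTP18 at 0.76 and -8.89, and CAT8 at -0.08 and 7.85. MIG2 was at 1.40 at 0 min, not called, and 1.66 higher in the null strain at 20 min.

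**Figure D5:**
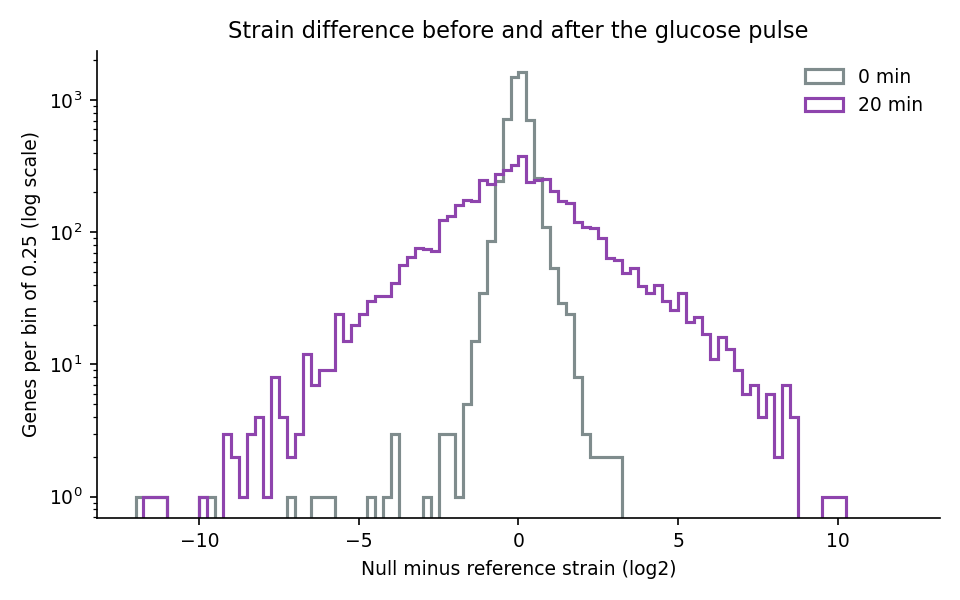
Number of genes (log scale) by the difference between the null and the reference strain (log2, bins of 0.25) at 0 min (grey) and at 20 min (purple), over replicates 1 and 3. Most genes lie close to 0 at 0 min, with a median absolute difference of 0.210, and the spread at 20 min is wider on both sides, with a median of 1.27.

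By chromosome, the median difference between responses ranged from -0.25 on chromosome V to 0.17 on chromosome VI. Chromosome I, with 90 genes, had -0.22 and lay inside the range of the others, while its median strain difference was 0.89 at 0 min and 0.29 at 20 min. At 0 min the medians of the other chromosomes lay between -0.03 and 0.03. The reason for the level of chromosome I was not tested.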

How the data were processed

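Total RNA from chemostat cultures was labelled as biotinylated cRNA and hybridized to Affymetrix yeast arrays, per the labels' protocols. The authors deposited 1 log2 intensity per probe set and array. The sources used here do not name the software that summarized the probes. The lowest value of an array was 2.01 to 2.11 and the highest 15.96. Of 10928 probe sets, 166 were controls, 7244 had 1 gene symbol, 1 had several and 3683 had none in the platform annotation. Another organism's identifiers were carried by 1746, which were not used here. Matching to RefSeq gene identifiers gave 5498 probe sets of 5449 genes, keeping for each gene its probe set of highest mean.

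Array medians differed by 0.558 log2 units (10.34 to 10.90), above the limit of 0.1, so the 12 arrays were quantile normalized. Limma 3.58.1 in R 4.3.3 fitted 4 group means on 8 arrays with 4 residual degrees of freedom, or 8 with 12 arrays. Contrasts gave the response of each strain, the difference between responses and the strain difference at each time. Variances were moderated by empirical Bayes, p-values were adjusted over all 5449 genes by Benjamini-Hochberg, and an adjusted p under 0.05 made a call. The pipeline was run on simulated data with independent noise around a single mean per gene and changes added to few of the genes. That setting differs from these data, where most genes were called, so it does not test the counts given here. The number of arrays limits the precision.

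The members, the 31 gene lists and the tests were chosen with earlier results of these data known. Listed genes with no probe set matched, HXT6, HXT12, HXT16 and SDC25 among them, were not analysed here. The text names the markers UTP18, FBP1 and MIG2, the 12 largest called differences each way without a group mean under 5, and the 8 leading genes of each class by response. From each list it draws on up to 3 called members, the leading member of the other direction and the uncalled member nearest 0. Not every one of these is named. From the signalling lists the text gives all members but TOS3, NRG2 and ASC1, which appear only in the plot of differences with 95% intervals. Alternatives covered the 12 arrays, array weights, scaling, dim genes, probe sets, the variance model, a replicate block, thresholds and each array left out. No sequence is shown. Python 3.11.15 and matplotlib 3.10.9 drew the figures.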

Additional observations from a re-analysis of the deposited data

Results flagged for a closer look

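The results here were picked out because a test of the difference itself separated the strains' responses to the same pulse. Limma called 3611 genes for that difference on 8 arrays, and 829 genes changed in opposite directions in the strains. For FBP1 the difference was 5.18, from a fall in the reference strain and no called change in the null strain. For UTP18 it was -9.65, from a rise in the reference and a fall in the null strain. None of these was called when all 12 arrays entered under their labels. Groups of 2 or 3 arrays were not tested for single outlying arrays.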

How the results depend on the processing

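With all 12 arrays under their labels every count of called genes went to 0, and UTP18 at -3.23 and FBP1 at 1.74 kept their direction without passing. The total of 3611 stayed between 2746 (adjusted p under 0.01) and 4045 (array weights) under the other alternatives, and between 3175 and 3474 with each array left out, all 8-array settings giving UTP18 and FBP1 the same call. The replicate block within strain gave 3279 genes and the block across strains 3484. In the pairing check, deviations of replicates 1 and 3 correlated at 0.0811 in the reference and -0.294 in the null strain. With 2 arrays per group, this cannot show whether samples of the same number came from the same culture. The block within strain called 796 genes in the null strain, against 1501 without it. A block within strain that crossed the replicate numbers between the 2 times in both strains, chosen after seeing the data, gave 3479 calls. It gave 152 for reference down and null up, 87 of one sign with a called difference and 10 also called at 0 min.

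The classes by response moved more. Array weights gave 359 genes of one sign without a called difference (223 here), 369 called in the null strain and not the reference (234) and 88 also called between strains at 0 min (44). Values as deposited gave 168 for reference down and null up (274), centred arrays 93 of one sign with a called difference (154), and the trend and robust variance 70 at 0 min. The block within strain gave 325 for reference up and null down (555), 131 for the reverse, 456 in opposite directions, 67 and 110 of one sign with and without a called difference, 142 for the null strain and 11 at 0 min, and the block across strains 29 at 0 min. At an adjusted p under 0.01 the same counts were 214, 56, 270, 22, 72, 109 and 13. For changes of at least 1 log2 unit they were 308, 81, 389, 47 and 109 for the first 5.

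With each array left out the ranges were 1596 to 1747 higher, 1579 to 1727 lower, 2146 to 2533 for the reference strain alone, 336 to 461, 85 to 231 and 442 to 692 for opposite changes, 71 to 125 and 83 to 197 for one sign with and without a called difference, 138 to 240 for the null strain, 12 to 48 at 0 min and 3089 to 3353 at 20 min. The differences ranged from -10.38 to -8.92 for UTP18, 4.98 to 5.38 for FBP1 and -0.17 to 0.69 for MIG2. A sign turn of an uncalled value such as MIG2's was not counted as a change. YJL213W turned from an uncalled -0.01 to called values of 1.68 as deposited and 1.43 with centred arrays. Of 168 named genes called here, 161 to 165 stayed called with any array left out, 163 with the block within strain and 165 as deposited. The cause was not tested in any case where no construction shows it.

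With 2 arrays per group, a missed threshold shows no equality. Values near the lowest signal bound the size of falls, and those near the highest limit rises. Arrays give shares of RNA, so a change in total RNA is not seen.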
